A study of Ovis aries with 16 samples.

Results

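The effect of ketamine in fetuses that were not made hypoxic was examined in the hypothalamus of fetal sheep by comparing the normoxia plus ketamine group (NK, n = 4) with the normoxia control group (NC, n = 3). These 7 arrays, chosen by their labels, are 7 of the 16 arrays of the study. The other 9 are the hypoxia groups, HC (n = 5, saline before hypoxia) and HK (n = 4, ketamine before hypoxia), which entered the fit for the shared estimate of the spread and for the test of whether the ketamine difference depends on hypoxia. All animals were late-gestation Suffolk fetuses carrying chronic catheters. NK fetuses received ketamine and NC fetuses saline into a vein, both then had a 30 min period of normoxia, and the hypothalamus was collected at 24 h, after 23.5 h of recovery. Each array held RNA of 1 fetus. Most fetuses were twins, pregnancies were assigned whole to normoxia or hypoxia, and shared litters cannot be traced from the labels, so 2 arrays of these groups may come from 1 ewe.

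Ketamine is a dissociative anesthetic that blocks the channel of the N-methyl-D-aspartate (NMDA) class of glutamate receptors. The hypothalamus is dense in glutamate synapses, and its neurons set pituitary hormone release, appetite, water balance and the response to stress through peptides such as oxytocin, somatostatin, neuropeptide Y and pro-opiomelanocortin. The drug itself acts for a short time, so the comparison asks which transcripts still differed 1 day after a single exposure. In a tissue homogenate, fewer cells of a type and less RNA per cell cannot be told apart.

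The values below are log2 signals relative to the array's own 75th percentile, so 0 is that percentile and each unit is a doubling. The tissue was checked against hypothalamic peptides and cell type markers. Of 15 hypothalamic peptide genes tested, 13 were well above background on all 7 arrays, and so were all 6 astrocyte markers. The 15 include leptin, a hormone of fat tissue, which was not among the 13. Neurons were represented by NEFH alone, and no oligodendrocyte marker on the fixed list was on the array. The 75th percentile of the signal was 1325 to 1506 intensity units in NC and 1254 to 1448 in NK (exact permutation test over 35 splits, two-sided p = 0.714). The share of probes well above background was 74.0% to 76.2% in NC and 71.7% to 79.2% in NK (exact permutation p = 0.486). The smallest p these 7 arrays allow is 0.0286. NC1, NC2, NK1 and NK2 were on slide 1, and NC3, NK3 and NK4 on slide 2.

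Few transcripts passed the test. At the unadjusted threshold of 0.05 used in the study's methods, limma called 133 of 12249 probes, which is 1.09% against the 5% that pass on average when no probe differs. NK was higher than NC for 106 of these probes (0.865%) and lower for 27 (0.22%). No probe was called after Benjamini-Hochberg adjustment (0 calls, smallest adjusted p = 1.00). The median 95% confidence interval of the NK minus NC difference extended 0.38 log2 units to either side. A probe with that typical spread was therefore not called if its measured difference was smaller. The spread was estimated together with the hypoxia groups, where the median SD over probes was 0.240 (HC) and 0.224 (HK), against 0.159 in NC and 0.191 in NK. The lean toward higher values depended on the scaling: 79.7% of the calls were higher with the 75th percentile, 57.5% of 127 calls with the median of each array, 46.6% of 103 calls with quantile normalization, 50% of 88 calls with normexp, and 50.5% of 93 calls with the deposited values.

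The calls were also split by signal level. Among the 10319 probes well above background on all 7 arrays, 79 (0.766%) were called, 59 higher (0.572%) and 20 lower (0.194%). Among the 1930 dimmer probes, 54 (2.8%) were called, 47 higher (2.44%) and 7 lower (0.363%). A probe was tested if it was well above background on at least 3 of the 16 arrays, which the NK arrays alone can supply. Dim probes could thus enter because they were high in NK, so the excess of rises among them is not read as a result. Of the 37 called probes that differed by over 1 log2 unit, 33 were higher in NK and 3 were well above background on all 7 arrays. The 7 arrays did not overlap between the groups for 288 probes (2.35%), with all NK arrays above NC for 195 (1.59%) and below for 93 (0.759%), and 57 of the 288 (0.465% of all probes) were also called. If labels were exchanged at random, each of these orders would hold for a fraction of 0.0286, from the 35 splits. Both observed shares were lower, so a lack of overlap is described below but adds no weight to a gene.

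**Figure D1:**
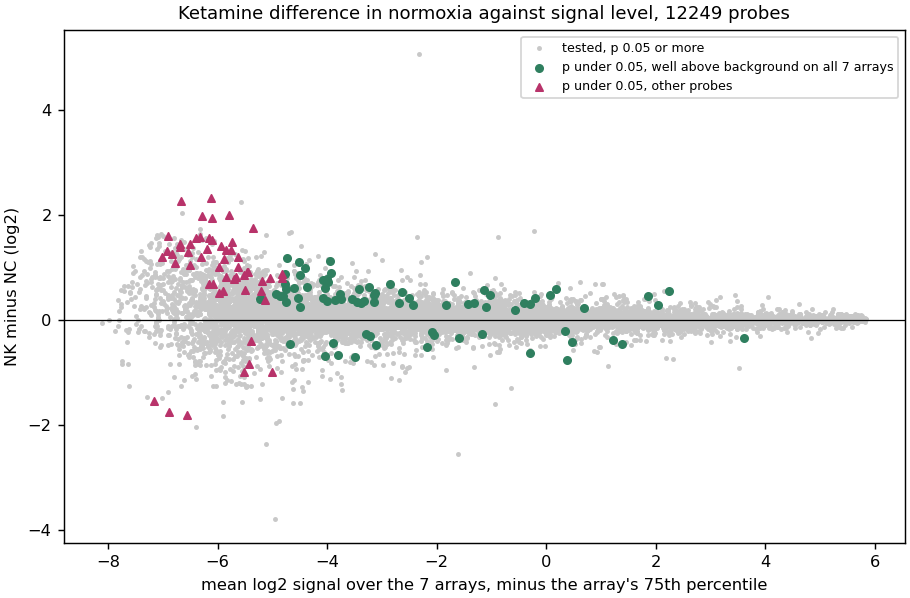
NK minus NC difference in log2 (vertical) against the mean log2 signal over the 7 arrays relative to the 75th percentile (horizontal) for 12249 tested probes. Grey points were not called, green circles are the 79 called probes well above background on all 7 arrays, and pink triangles are the 54 called probes that were dimmer, which sit at the low end of the signal and mostly above 0.

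Only 1312 of the tested probes carried a gene name, and 14 of them were called (1.07%), from 13 genes. The 12 genes described here comprise 10 that were higher and 2 that were lower in NK. They fall by signal into 4 genes read well above background on all 7 arrays (SFTPC, LGALS15, DCN and NTN4) and 8 dim genes. Called means here an unadjusted p under 0.05 by limma. None passed adjustment over all probes (adjusted p = 1.00 for each), and each gene was chosen because its NK minus NC difference was called. All 12 kept the sign of that difference in every alternative analysis that gave a value.

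The probes behind the brighter genes are shown first, because where 2 probes of a gene share almost no sequence their readings are separate measurements of the transcript. The first 30 of the 60 bases of each probe are given as designed on the array.
SFTPC, probe A_70_P039302: tgtgcagattggcaggaagtggatactgtc
SFTPC, probe A_70_P039301: gttcctagggcccaagggggctcctaccac
DCN, probe A_70_P030251: caagaaaaccctcatttttataacctggca
DCN, probe A_70_P030252: acaacaccaaaaaggcttcttattcaggag
NTN4, probe A_70_P068147: ggggtgttaaatggatcctctccacatgta
NTN4, probe A_70_P068146: aaagcactttactacctaccgcttgtgttg
LGALS15, probe A_70_P012536: tgtgaaaatgctggatgtgaggggagatat
The longest run shared by the 2 SFTPC probes was 5 bases, by the 2 DCN probes 5 bases and by the 2 NTN4 probes 12 bases. The second LGALS15 probe shared 59 of 60 bases with the first, so it repeats the same measurement.

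SFTPC, which encodes surfactant protein C and is best known from the alveolar cells of the lung, was lower with ketamine. On its first probe the NC arrays read 0.58, 0.81 and 0.73 and the NK arrays 0.17, 0.41, 0.53 and 0.06, so every NK array lay below every NC array. The difference was -0.42 ± 0.15 (SE; 95% interval -0.74 to -0.09), a 1.34-fold lower signal. The second probe read 1.28 to 1.59 in NC and 0.81 to 1.39 in NK, where NK3 was the only NK array inside the NC range. Its difference was -0.39 ± 0.17 (SE; interval -0.75 to -0.04) and was also called. Both probes were above the 75th percentile on all 7 arrays. Without NC2 the difference on the first probe was -0.37 and was not called.

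DCN, which encodes decorin, a small proteoglycan that binds collagen fibrils, was higher with ketamine and was the brightest of these genes. The NC arrays read 2.23, 1.57 and 2.01 and the NK arrays 2.15, 2.59, 2.37 and 2.84. NK1 lay inside the NC range and the other 3 NK arrays above it. The difference was 0.55 ± 0.23 (SE; 95% interval 0.06 to 1.04), 1.46-fold. The second DCN probe gave 0.50 ± 0.25 (SE; interval -0.03 to 1.03) and was not called. The first probe's call was lost without NC2 (0.37), NK2 (0.52) or NK4 (0.43).

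NTN4, which encodes netrin-4, a laminin-related protein of basement membranes, was higher as well. The NC arrays read -1.28, -1.55 and -1.64 and the NK arrays -1.06, -1.31, -1.08 and -1.25. NK2 overlapped NC1. The difference was 0.31 ± 0.14 (SE; 95% interval 0.01 to 0.61), 1.24-fold, and the second probe gave 0.25 ± 0.14 (SE; interval -0.05 to 0.54). NTN4 was not called under median scaling, quantile normalization, normexp or with the deposited values (0.20), nor without NC2, NC3, NK1 or NK3, where the difference was 0.24 to 0.28.

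LGALS15, a galectin known from the sheep uterus and trophoblast, was lower. The NC arrays read -3.03, -3.20 and -2.89 and the NK arrays -3.10, -3.45, -3.48 and -3.37. NK1 fell between the NC arrays and the other 3 NK arrays lay below them. The difference was -0.31 ± 0.12 (SE; 95% interval -0.56 to -0.06), 1.24-fold. It was not called without NC3 (-0.23), NK2 (-0.28) or NK3 (-0.26), or with the deposited values (-0.13).

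The other 8 called genes were dim, and in most NC animals their probes were not well above background. Where no NC array read a probe, the fold is a lower bound against the lowest signal still called well above background. It bounds the measured means on this scale only and carries no sampling error, so the 95% interval can extend below it. The called probes of MMP14 and AQP3 reached the 3 arrays needed for testing only with NK counted. They were well above background on 4 NK and 1 HC arrays (MMP14) and on 2 NK and 2 HC arrays (AQP3). MMP14, which encodes a membrane-bound matrix metalloproteinase, had the smallest p of all named genes. It read -5.74, -5.96 and -6.18 in NC, none of them well above background, and -5.36, -5.21, -4.57 and -5.10 in NK, all of them well above it. Every NK array lay above every NC array, and the rise of the measured means was at least 1.74-fold. The measured difference was 0.90 ± 0.26 (SE; 95% interval 0.35 to 1.45). Of its other probes, A_70_P050426, which shared no run longer than 5 bases with it, differed by 0.07 ± 0.38 (SE; interval -0.75 to 0.89), and the remaining pair was too dim to be tested. Under normexp, which adds an offset of 50 before the log and so shrinks differences of dim probes, the MMP14 difference was 0.16. With the deposited values, whose method is not stated, it was 0.10, and neither difference was called. Smaller values of dim genes under normexp are therefore not read as a failure to hold.

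LOC443012, described on the array as the prostaglandin E2 receptor subtype EP1, read -7.93, -6.51 and -6.31 in NC and -4.18, -4.55, -4.79 and -6.23 in NK. The probe was well above background on 0 of 3 NC arrays and 3 of 4 NK arrays, and NK4 was barely above NC3. The rise of the measured means was at least 1.94-fold, with a difference of 1.98 ± 0.63 (SE; 95% interval 0.64 to 3.33). The difference was 2.86 within slide 1 and 0.81 within slide 2, where it was not called. It was 0.45 under normexp and 0.28 with the deposited values, and was still called. A second probe of this transcript has almost the same sequence. In the following lines, which give the first 30 bases of each probe, the capitals mark the part of a 58-base run that both probes hold.
LOC443012, probe A_70_P041067: tgTACATCTTCGTGCGCCAGGCAGTCGTTC
LOC443012, probe A_70_P041066: TACATCTTCGTGCGCCAGGCAGTCGTTCGC
The second probe was brighter and was well above background on 6 of the 7 arrays. It read -4.21, -4.16 and -4.15 in NC and -3.63, -4.06, -5.60 and -3.88 in NK, a difference of -0.12 ± 0.84 (SE; interval -1.93 to 1.69). The rise was thus called with 1 of 2 nearly identical probes.

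AQP3, a channel for water and glycerol, was likewise called with 1 of a pair of near-identical probes. Its called probe read -7.12, -7.83 and -8.05 in NC and -5.03, -6.77, -7.73 and -5.92 in NK, above background on 0 of 3 and 2 of 4 arrays. NK3 lay among the NC arrays, and no fold is given because the NK mean did not exceed the lowest signal the array could call. The measured difference was 1.30 ± 0.60 (SE; 95% interval 0.01 to 2.60). The probe displaced from it by 1 base differed by 0.23 ± 0.62 (SE; interval -1.09 to 1.56). The capitals mark what the lines show of the 59 shared bases.
AQP3, probe A_70_P026066: CATAAATAAGGAGCAGGAGAGTGATGGGTT
AQP3, probe A_70_P026067: tCATAAATAAGGAGCAGGAGAGTGATGGGT

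SP-D, the collectin surfactant protein D, which binds sugars on microbes, read -7.07, -6.24 and -5.74 in NC and -3.40, -4.79, -5.10 and -5.14 in NK. All NK arrays lay above NC, with NK1 highest. The difference was 1.74 ± 0.60 (SE; 95% interval 0.45 to 3.03), with the probe well above background on 1 of 3 NC and 4 of 4 NK arrays. It was 2.56 within slide 1 and 0.62 within slide 2, where it was not called, and 1.38 without NC1, also not called. The difference was still called but smaller under normexp (0.47) and with the deposited values (0.33). The other SP-D probe was above background on 0 of the 7 arrays and was not tested, although it shared 40 bases with the first.

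SLC2A2, which encodes the low-affinity glucose transporter GLUT2, read -7.00, -7.99 and -7.36 in NC and -5.83, -3.95, -4.20 and -6.54 in NK. The NK arrays were widely spread but all lay above NC. It was well above background on 0 of 3 NC and 3 of 4 NK arrays. The rise of the measured means was at least 1.70-fold, with a difference of 2.32 ± 0.95 (SE; 95% interval 0.29 to 4.35). Quantile normalization (2.10), normexp (0.52) and the deposited values (0.33) each ended the call, and so did leaving out NC2, NC3, NK2 or NK3 (1.93 to 2.36).

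K38, a hair keratin, read -6.13, -6.10 and -6.70 in NC and -5.85, -5.11, -5.58 and -5.49 in NK, with no overlap between the groups. The rise of the measured means was at least 1.31-fold and the difference 0.81 ± 0.34 (SE; 95% interval 0.07 to 1.54). It was not called without NC3 (0.61), NK2 (0.67) or NK4 (0.80), or with the replicate number as a block (0.78). Quantile normalization (0.65) and the fit with an intensity trend (0.81) ended the call as well. A brighter K38 probe, with no shared run over 6 bases, differed by 0.29 ± 0.64 (SE).

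The remaining pair encode transcription factors. TFAP2A, the activating protein AP-2 alpha, read -5.39, -5.76 and -5.69 in NC and -5.10, -4.30, -4.70 and -5.39 in NK, and NK4 met NC1. Its difference was 0.74 ± 0.30 (SE; 95% interval 0.10 to 1.37), its second probe gave 0.57 ± 0.48 (SE), and the call was lost without NC2, NC3, NK2 or NK3 (0.55 to 0.70). It was also lost under quantile normalization (0.60), normexp (0.20) and with the deposited values (0.12). WT1, the Wilms tumor zinc-finger protein, read -5.26, -6.87 and -7.65 in NC and -5.88, -4.18, -5.75 and -5.28 in NK. NC1 lay above 3 of the 4 NK arrays. The difference was 1.33 ± 0.61 (SE; 95% interval 0.01 to 2.64), and the second probe gave 0.59 ± 0.54 (SE). WT1 was not called without NC2, NC3, NK2 or NK4 (0.80 to 1.33) and AQP3 not without NC2, NC3, NK1 or NK4 (0.86 to 1.22). Neither was called with the replicate number as a block (1.19 for WT1 and 1.31 for AQP3). Of the 10 genes with a tested second probe, 9 had a second difference of the same sign, and SFTPC alone was called with both. The second probe shared a run of 59 bases with the first for LGALS15, WT1 and AQP3, of 58 for LOC443012 and of 40 for TFAP2A. Such probes are not separate measurements, so the count is not read as agreement.

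The slides held 2 NC and 2 NK arrays and 1 NC and 2 NK arrays. Within slide 1 the differences were -0.41 for SFTPC, 0.47 for DCN, 0.23 for NTN4, -0.16 for LGALS15, 0.57 for MMP14, 2.60 for SLC2A2, 0.64 for K38, 0.88 for TFAP2A, 1.04 for WT1 and 1.58 for AQP3. Within slide 2 they were -0.44, 0.59, 0.48, -0.53, 1.34, 1.99, 1.17, 0.64, 2.14 and 1.22 in the same order. All had the sign of the pooled difference. Within slide 1 TFAP2A, LOC443012 and SP-D were called, and within slide 2 LGALS15, MMP14 and WT1.

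**Figure D2:**
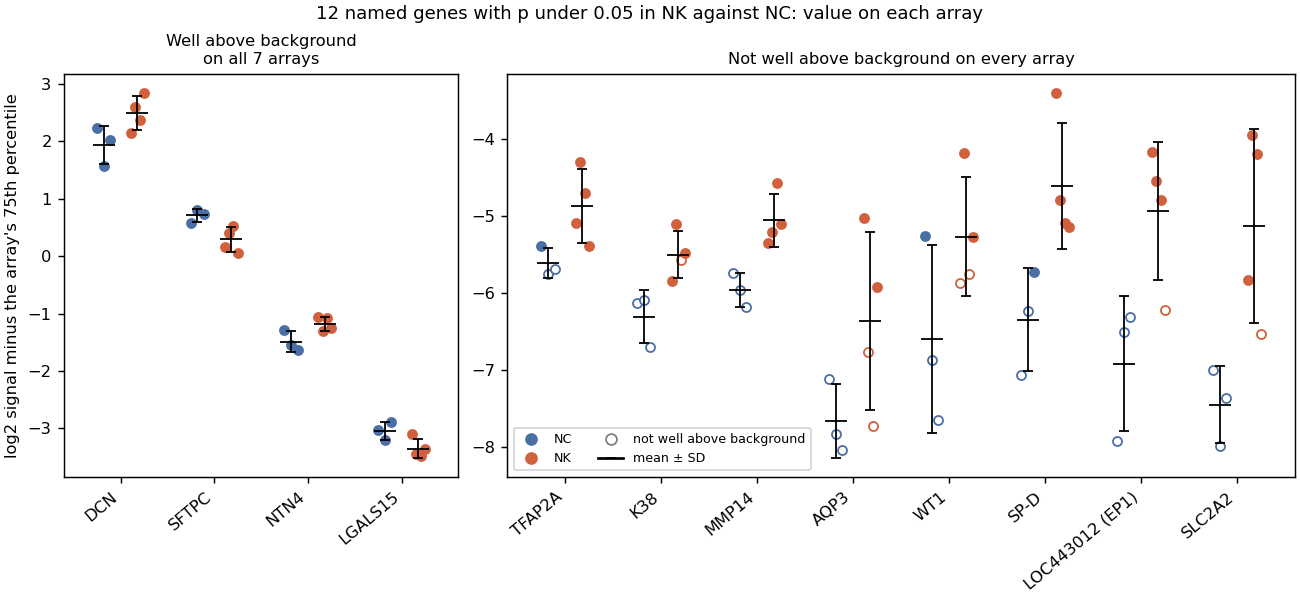
Log2 signal minus the array's 75th percentile (vertical) on each NC array (blue) and NK array (orange) for the called probe of 12 named genes. Filled points were well above background, open points were not, and bars are mean ± SD. In the left panel, which holds SFTPC, DCN, NTN4 and LGALS15, all points are filled, and in the right panel most NC points are open.

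Most called probes carried no gene name (119 of 133). The 3 largest falls and the 3 largest rises among those well above background on all 7 arrays are given with the start of their sequence, since the sequence is all that identifies them. All are expressed sequence tags.
A_70_P043666, from a library coded OMU90: ttacatgttcggaaaaggaatctactttgc
A_70_P069476, from gastric lymph: ggagtctaagaaaactaaagccaactcaca
A_70_P046676, from a library coded ONLN: acaaccaccaccaaaaacaagaggtaaaga
A_70_P053886, from abomasal mucosa: tgacagtatacaggaacttctgcaaatata
A_70_P048611, from a library coded OAPP: tgtaatatttcttgtaaattgggacccacc
A_70_P037146, from a library coded OFM1: aaagaccgggtgaagaaaggtggatcctac
A_70_P043666 read 0.87, 1.16 and 0.40 in NC and 0.39, 0.94, -0.51 and -0.63 in NK, a difference of -0.77 ± 0.32 (SE), with NK2 inside the NC range. A_70_P069476 read -2.84, -3.25 and -3.15 in NC and -3.89, -3.51, -4.35 and -3.44 in NK, and all NK arrays lay below NC (-0.72 ± 0.33, SE). A_70_P046676 differed by -0.70 ± 0.30 (SE), and there NC2 alone stood apart at -2.58, whereas NC1 and NC3 read -4.24 and -4.10 and the NK arrays -4.22 to -4.42.

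In the rises the NK arrays were widely spread. A_70_P053886 read -5.23 to -5.51 in NC and -5.41, -3.62, -3.41 and -4.49 in NK (1.18 ± 0.50, SE), with NK1 inside the NC range. A_70_P048611 read -4.33 to -4.92 in NC and -2.63, -4.57, -3.62 and -3.04 in NK (1.12 ± 0.46, SE), and here NK2 lay among the NC arrays. A_70_P037146 read -4.93 to -5.50 in NC and -4.92, -4.07, -2.50 and -4.68 in NK (1.11 ± 0.45, SE). All NK arrays were above NC, but NK1 by a very small margin and NK3 by far.

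Among named genes read on all 7 arrays, those next in order of p had p-values from 0.0546 to 0.121 and are given as values, since none passed. Every NK array was higher than every NC array for COL2A1 (cartilage collagen, 0.34 ± 0.18 (SE)), for TLR6 (a Toll-like receptor, 0.36 ± 0.20), for CRY1, a repressor of the circadian clock (0.39 ± 0.21), and for TIMELESS, a partner of the clock and of DNA replication (0.69 ± 0.42). RPA1, which binds single-stranded DNA, and ME1, a cytosolic malic enzyme, had every NK array lower (-0.23 ± 0.12 with NK2 left out as an outlying spot, and -0.17 ± 0.10). PTCH1, the hedgehog receptor, differed by 0.93 ± 0.45, INSL3, a peptide hormone of the relaxin family, by 0.82 ± 0.42, and FBXO32, a ubiquitin ligase of muscle wasting, by -0.59 ± 0.30 (SE). In INSL3 the NC arrays were tight at -3.01, -3.05 and -2.97, and the NK arrays read -1.48, -3.09, -2.10 and -2.11, so that NK2 alone remained at the NC level. In FBXO32 the NC arrays read 1.07 to 1.33 and the NK arrays 1.22, 0.86, 0.32 and 0.10.

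The drug's own target and related genes held no call. Of 16 genes of glutamate receptors and transport on the array, 15 were tested, 0 were called in either direction and the median difference was 0.08, beside 0.03 over all 857 tested named genes. GRIN1, the obligatory subunit of the NMDA receptor and the only NMDA subunit among them, was -1.37, -1.63 and -1.24 in NC and -1.23, -1.67, -1.56 and -1.21 in NK. The groups overlapped fully on this probe, and the difference of -0.01 had a 95% interval from -0.42 to 0.41. The other GRIN1 probes were less precise, at 0.15 (interval -0.66 to 0.95) and 0.04 (-0.86 to 0.93). The AMPA receptor subunits GRIA1, GRIA2, GRIA3 and GRIA4 differed by 0.22, 0.07, 0.16 and 0.02. Their 95% intervals all lay between -0.42 (GRIA4) and 0.58 (GRIA1). The glial glutamate transporters SLC1A2 and SLC1A3 differed by 0.33 and 0.15, and the neuronal transporter SLC1A1 by -0.22 on 1 probe and 0.23 on another. Metabotropic receptors ranged from -0.23 for GRM7 to 0.78 for GRM6, the latter a dim probe above background on 0 of 3 NC arrays.

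Other receptors that ketamine is known to touch were read less precisely. None of 8 tested genes of other transmitter systems was called (median 0.03, of the other sign under 3 of 5 scalings). The mu opioid receptor OPRM1 read -3.87, -3.94 and -3.81 in NC and -3.38, -3.65, -5.43 and -3.53 in NK, with NK3 alone below NC (difference -0.13, 95% interval -1.08 to 0.83). The kappa opioid receptor OPRK1 differed by 0.13 on its brightest probe (interval -0.28 to 0.54) and by 0.40 ± 0.23 (SE) on another. SLC6A2, the noradrenaline transporter, was dim and differed by 1.19 (interval -0.25 to 2.63). Of 4 tested genes of plasticity and translation signalling, 0 were called, and CREB1 differed by -0.09 and AKT1 by 0.07. None of 6 immediate early genes was called. JUN, EGR1, JUND, JUNB, MYC and FOS all lay between -0.19 and 0.19, and FOS, the usual mark of recent neuronal firing, read 0.33, -0.17 and -0.39 in NC and -0.51, -0.03, -0.81 and 0.30 in NK.

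Hypothalamic peptide genes had the highest median of the 20 pathway lists, 0.29 over 15 genes. Of these, 12 were above 0, beside 512 of all 857 tested named genes, and 0 were called. The median was positive under all 5 other scalings (0.21 to 0.29), but over the alternatives it ranged from -0.02 to 0.66. For several of them the spread between animals of a group exceeded the difference between groups. AGRP, the orexigenic agouti-related peptide, read -0.89, -5.82 and -1.84 in NC and -3.85, -0.91, -2.32 and 0.46 in NK. GHRH, the growth hormone releasing hormone, read -1.76, -4.07 and -2.91 in NC and -4.71, -1.19, -2.71 and -0.06 in NK. NPY read 1.59, -0.43 and 0.75 in NC and 0.22, 1.61, 0.80 and 2.66 in NK. In each of these 3 genes NC2 and NK1 were the lowest arrays of their groups and NC1 and NK4 the highest.

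POMC, the precursor of adrenocorticotropin and melanocortins, ran 1.18, 0.06 and 0.72 in NC and 0.58, 1.52, 0.70 and 2.51 in NK, again with NC2 and NK4 at the ends (difference 0.67, 95% interval -0.53 to 1.88). OXT, oxytocin, broke the order: NK4 read -0.45 while the other 6 arrays read 2.13 to 3.58. The difference was -0.74 (interval -2.38 to 0.90). SST, somatostatin, was at 3.90 to 4.78 in NC and 4.18 to 4.87 in NK. LEP, leptin, a hormone of fat tissue that the list includes, had the smallest limma p of the list (0.0839). It read -5.58, -5.68 and -4.93 in NC and -3.38, -5.69, -4.23 and -3.66 in NK, with only NK2 at the NC level. Its probe was well above background on 1 of 3 NC and 3 of 4 NK arrays.

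**Figure D3:**
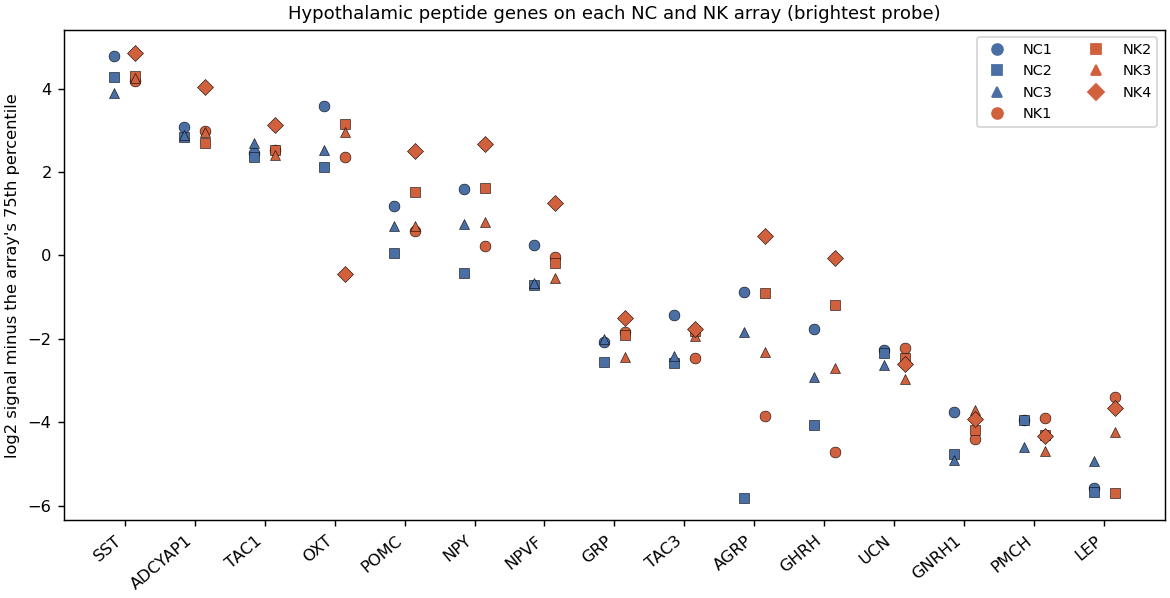
Log2 signal minus the array's 75th percentile (vertical) of 15 hypothalamic peptide genes (horizontal, by mean level) on each NC array (blue) and NK array (orange), with a marker for each array. AGRP spans from -5.82 in NC2 to 0.46 in NK4 and GHRH from -4.71 in NK1 to -0.06 in NK4, whereas OXT is lowest in NK4 at -0.45.

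Genes of the anterior pituitary, which hangs from the hypothalamus by its stalk, were read alongside. Of 7 tested, 0 were called, and all 7 differences were above 0 (median 0.15), beside 512 of all 857 tested named genes. CGA, the common subunit of the glycoprotein hormones, read -0.92, -4.64 and -0.67 in NC and -6.38, 0.65, -2.37 and 0.41 in NK, so NC2 and NK1 were again lowest. IGF2, a growth factor abundant in fetal meninges and choroid plexus, read 2.22, 0.86 and 2.47 in NC and 0.05, 3.32, 2.69 and 3.50 in NK (difference 0.54, interval -1.02 to 2.10). The summed level of the 2 tested genes of the choroid plexus and ependyma list was 1.31 to 4.80 in NC and 0.400 to 11.1 in NK, on a linear scale where 1 is the array's 75th percentile. NC2, lowest for IGF2 within NC, was also lowest for DCN, and NK4 was highest for both. The brighter of the 2 choroid plexus and ependyma genes ran otherwise. For it NC2 was the highest NC array (2.26) and NK2 the highest NK array (3.47), with NK4 at 1.81. NK1 was its lowest NK array, as for IGF2 and DCN. The part of these markers in the DCN result was not tested.

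Among matrix genes, 23 were tested, 2 were called higher (DCN and MMP14) and 0 lower, and the median was 0.15. Over all 857 tested named genes, taken by the same brightest probe, 5 were called higher and 2 lower, and 512 differences were above 0 and 345 below. Of the 23 differences 15 were above 0 and 8 below, the lowest being -1.23 for the integrin ITGA5, and SPP1, osteopontin, differed by -0.51, neither of them called. The list was written with earlier results of these data known. COL3A1 differed by 0.43 (interval -0.32 to 1.18), COL4A3 by 0.32 (-0.23 to 0.86), the inhibitor TIMP1 by 0.18 (-0.29 to 0.65), and the gelatinase MMP2, which MMP14 activates, by 0.13 (-0.48 to 0.73). TIMP2, TIMP3 and the integrins ITGAV, ITGB1 and ITGB5 all lay between -0.03 and 0.06. Of 4 surfactant proteins, SP-D was called higher and SFTPC lower, while SFTPB differed by 0.19 and SFTPA1 by 0.14. Both SP-D and SFTPC are among the same 5 higher and 2 lower calls over all named genes, and the genes of these lists were chosen knowing earlier results. SLC2A2 was the only call among 16 genes of glucose transport and glycolysis, whose median was 0.06. K38 was not called in the keratin list, which used its brighter probe.

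**Figure D4:**
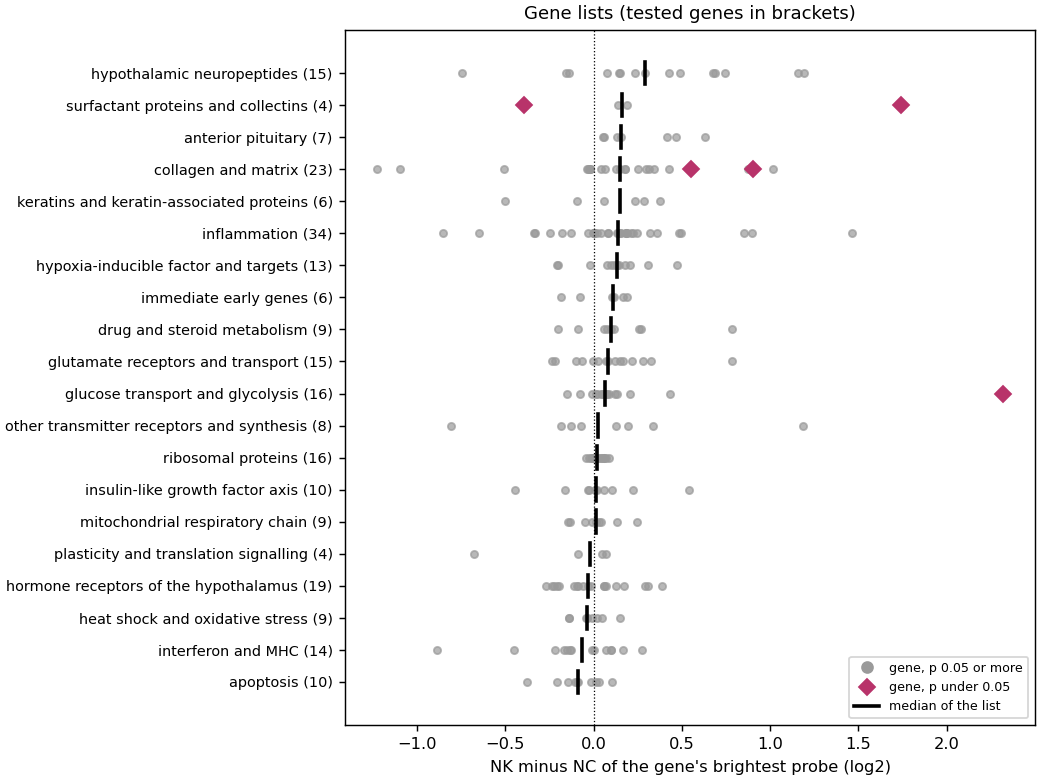
NK minus NC difference in log2 (horizontal) of each tested gene, by its brightest probe, in 20 gene lists (vertical, tested genes in brackets). Pink diamonds are genes called at the unadjusted threshold, grey circles are genes that were not, and black bars are list medians, which run from -0.09 for apoptosis to 0.29 for hypothalamic neuropeptides.

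The other lists held 0 called genes. Of 34 tested inflammation genes, 25 were above 0, beside 512 of all 857 tested named genes. The median was 0.14, falling to 0.01 under the scaling with the lowest value. A further list was that of the genes measured by PCR, which the study chose on these samples. Its 10 tested members ranged from -0.65 for CXCL10 to 0.49 for PTGS2 with a median of 0.16. PTGS2, the inducible cyclooxygenase, read -2.25 to -2.47 in NC and -1.64 to -2.13 in NK, above NC in all 4 animals. Its interval, on the spread of all 16 arrays, ran from -0.74 to 1.72 and it was not called. TNF, IL1B and NFKBIA differed by 0.15, 0.00 and 0.08. The 10 tested apoptosis genes had a median of -0.09. The median was -0.07 over 14 interferon and MHC genes, -0.03 over 9 heat shock and oxidative stress genes, 0.13 over 13 genes of the hypoxia-inducible factor and its targets, 0.10 over 9 genes of drug and steroid metabolism and 0.15 over 6 keratin genes. It was 0.02 over 10 genes of the insulin-like growth factor axis, 0.01 over 9 mitochondrial genes, 0.02 over 16 ribosomal genes and 0.02 over 12 endothelial genes, and the sign of these last 4 medians changed under 1 or 3 of 5 other scalings. Ribosomal protein genes were the most even, with 16 differences between -0.04 and 0.09. The 8 microglia and macrophage genes had a median of 0.14 and a summed level of 3.40 to 4.06 in NC and 3.64 to 4.11 in NK, and the 6 astrocyte genes summed to 98.6 to 121 in NC and 111 to 116 in NK. Hemoglobin beta (HBB) read 4.17, 3.07 and 2.64 in NC and 3.80, 3.55, 3.49 and 3.74 in NK, inside the NC range. The 5 tested lymphocyte genes had a median of 0.39 and summed to 0.160 to 0.231 in NC and 0.194 to 0.271 in NK. Hormone receptors were also without calls among 19 tested (median -0.03), with the glucocorticoid receptor NR3C1 at 0.13 (interval -0.50 to 0.75).

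Whether the ketamine difference in normoxia differed from that after hypoxia was tested by the interaction, (HK minus HC) minus (NK minus NC). Limma called 456 probes (3.72%) at the unadjusted threshold, 310 negative (2.53%) and 146 positive (1.19%), and 0 after adjustment (smallest adjusted p = 0.997). Of the 12 genes above, 6 were called, all with a negative interaction, the normoxic rise being larger than the difference after hypoxia. Between HK and HC 848 probes (6.92%) were called, and none of the called probes of these 12 genes was among them. The rule had selected these genes for their normoxic difference, which enters the interaction, so their interactions are not independent of that choice. DCN was 1.92 ± 0.38 in HC and 1.57 ± 0.17 in HK (SD), a difference of -0.35 ± 0.20 (SE) against 0.55 ± 0.23 in normoxia. The interaction was -0.90 ± 0.30 (SE) on this probe and -0.62 ± 0.33, not called, on the second. NTN4 differed by -0.18 ± 0.12 (SE) after hypoxia and by 0.31 ± 0.14 in normoxia. Its interaction was -0.50 ± 0.19 (SE) and that of its second probe -0.58 ± 0.18 (SE). NTN4 was the only one of the 12 with the interaction called on 2 probes.

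In TFAP2A the interaction was -1.09 ± 0.39 (SE), in MMP14 -0.75 ± 0.34, in WT1 -1.93 ± 0.81 and in AQP3 -2.12 ± 0.80. After hypoxia these 4 genes differed by -0.35, 0.15, -0.61 and -0.82 with ketamine, none of them called. SFTPC differed by -0.11 ± 0.13 (SE) after hypoxia and LGALS15 by -0.08 ± 0.10, with interactions of 0.31 ± 0.20 and 0.23 ± 0.16 that were not called. The interactions of SLC2A2 (-2.20), LOC443012 (-1.17), SP-D (-1.48) and K38 (-0.78) were negative and were not called either. Among the 19 uncalled genes next in order, which were also taken by their normoxic p, 5 had a called interaction, a count from which nothing is read for the same reason. They were COL2A1 (-0.76 ± 0.25, SE) and HEXA, a lysosomal enzyme (-0.32 ± 0.14), with negative values, and FBXO32 (0.94 ± 0.40), RPA1 (0.42 ± 0.16) and ME1 (0.37 ± 0.14) with positive values. The mean of COL2A1 was -0.96 without and -0.62 with ketamine in normoxia, against -1.12 and -1.54 after hypoxia.

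**Figure D5:**
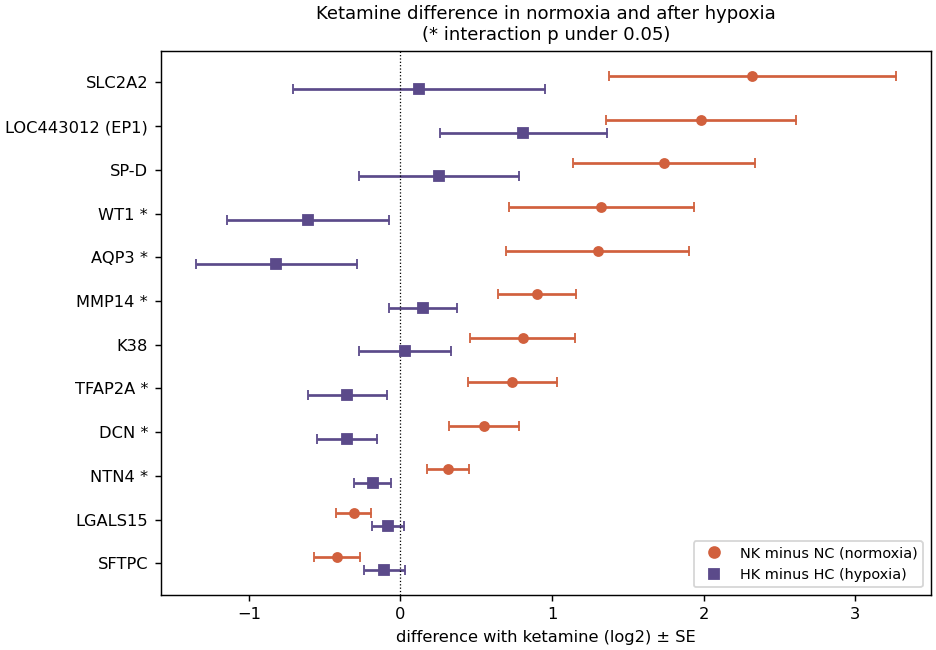
Difference with ketamine in log2 ± SE (horizontal) for the called probe of 12 named genes, as NK minus NC (orange circles) and HK minus HC (purple squares). Asterisks mark the 6 genes with an interaction p under 0.05, in all of which the orange circle lies to the right.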

How the data were processed

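Per the file headers, the authors scanned 1-color Agilent sheep arrays (cyanine 3) and deposited intensity values written by Feature Extraction 10.1.1.1, with background subtracted and spatial trends removed but no normalization between arrays. The authors also deposited log2 values of the same arrays with no method stated, used here as an alternative. Their array medians were all 8.53. They correlated with the log2 mean spot signals before background subtraction at r = 0.979 to 0.989, which fixes their scale but not their normalization. The 536 control spots and outlier spots (0.0801%) were left out, signals were put on a log2 scale, the array's 75th percentile was subtracted and spots of a probe were averaged. Of 15008 probes, the 12249 well above background on at least 3 of 16 arrays were tested. Names (1656 probes, 89.0% without) came from the files, or from sheep RefSeq genes of ARS-UI_Ramb_v3.0 for 726 of 750 accessions. No coordinates are given, since the files name no build.

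A linear model with 4 group means was fitted to all 16 arrays with limma 3.58.1 in R 4.3.3 (13.7 total degrees of freedom). All tests were two-sided, and the procedure was tested on simulated data. Calls use an unadjusted p under 0.05, with Benjamini-Hochberg counts over all tested probes beside them. Bounds set the bright group's mean against the higher of the dim probe's signal and the lowest signal called well above background, averaged over the dim group's arrays. Same-numbered NC and NK arrays deviated together (r = 0.20, 0.30 and 0.22) and shared a slide. An alternative fit therefore took the replicate number as a block over all 16 arrays. The block joins same-numbered arrays of all 4 groups, so it is not a paired fit of NC and NK. NC3 and NK4, which share that slide but no number, gave r = 0.42, so deviating together was not particular to the number.

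Named genes are every named gene with a called probe (by its smallest p), up to 4 members of each gene list, the 25 named genes of smallest p read on all 7 arrays, the 3 largest called rises and falls among unnamed probes read on all 7, called genes with an interaction p under 0.05, and the study's PCR genes as a count and range. Other list members named in the text were chosen after their values were seen. Lists take each gene by its brightest probe. The comparison, the members and the lists were chosen with earlier results of these data known. A few further genes qualified but are not reported here.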

Additional observations from a re-analysis of the deposited data

Results flagged for a closer look

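For 6 of the 12 named genes, the ketamine difference after hypoxia was lower than that in normoxia by the interaction (limma, unadjusted). Of all probes, 3.72% had a called interaction and 2.53% a negative one. The 12 genes were chosen by their normoxic difference, which enters the interaction, so nothing is read from the count or the shared sign. The interactions in log2 were -0.90 for DCN, -0.50 for NTN4, -1.09 for TFAP2A, -0.75 for MMP14, -1.93 for WT1 and -2.12 for AQP3. None passed adjustment over all probes. The call was lost in 12 of 18 alternatives for MMP14 (-1.32 to -0.04), 9 of 18 for WT1, 4 of 18 each for TFAP2A and AQP3, 4 of 19 for NTN4 and 2 of 19 for DCN. Quantile normalization ended it for TFAP2A, MMP14, WT1 and AQP3, and normexp or the deposited values for each of these and NTN4. No NK array stood apart from the other 3 among the 32 results checked for an outlying array, a check that would flag about 1 in 20 groups by chance.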

How the results depend on the processing

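The total of 133 calls fell to 88 under normexp with quantile normalization and rose to 220 with the hypoxia arrays left out of the fit and to 338 within slide 2, where NC has 1 array that is assumed to vary like the others. Leaving out 1 array at a time gave 122 to 234 calls, the highest counts being 234 without NC1 and 230 without NK1, and 0 to 1 calls after adjustment (1 without NK2). After adjustment 0 probes were called in the remaining settings, the fit within slide 2 aside. There NC3 is the only NC array, so its adjusted calls are not read. They included A_70_P004586 (-8.00) and A_70_P053946 (-12.3), the unnamed probes on which NC3 stood far above all other arrays, described below. The share of higher calls, which moved with the scaling as given above, was 56.5% within slide 2. Interaction calls numbered 222 within slide 1, against 456, and 324 to 552 when 1 array was left out. With the replicate block (same-numbered arrays of all groups) there were 189 calls, 0 after adjustment and 554 interactions. K38, WT1 and AQP3 and the interactions of MMP14 and WT1 were no longer called. The block ended no other NK minus NC or interaction call of the 12 genes. No filter on dim probes gave 197 calls of 15008 probes.

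Over 43 gene results and 20 settings (832 values), 678 kept both direction and side of the threshold, 116 lost their call, 36 gained one and 2 reversed. The reversed values were the interactions within slide 2 of LOC443012 (1.05) and SP-D (0.44), against -1.17 and -1.48 over all arrays. The cause was not tested. Every one of the 12 differences kept its sign in every setting that gave a value. The call was lost in 1 of 19 alternatives for LOC443012, 2 of 19 for SP-D, 3 of 20 for SFTPC, 13 of 19 for WT1 and 14 of 19 for AQP3. The number of arrays and the faint signal of 8 of the 12 genes limit the precision.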

Other observations

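Some probes were read as present in some fetuses and absent in others, and are given as values chosen after they were seen. A_70_P066011, which carries no gene name, read -0.22 in NC1 and -0.06 to -0.21 in all 4 NK arrays, but -7.48 in NC2 and -7.93 in NC3. Over all 16 arrays no value lay between -0.29 and -7.48, and 1 of 5 HC and 2 of 4 HK arrays were at the high level. Its difference of 5.07 ± 2.51 (SE) was the largest rise among the tested probes and was not called. A_70_P051921 behaved alike with other members: NC1, NK1 and NK2 read -0.73 to -1.80, and NC2, NC3, NK3 and NK4 read -7.45 to -8.15.

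NC3 stood far above the other 15 arrays on 2 unnamed probes. A_70_P004586 read 5.20 in NC3 and -3.10 to -2.46 on the other 15 arrays, and A_70_P053946 read 5.23 in NC3 and -8.21 to -4.13 elsewhere. A_70_P004041 was present in 3 NK animals, at -4.56 in NK1, -4.63 in NK3 and -5.35 in NK4, and read -8.26 in NK2, -7.64 to -8.25 in NC and -7.01 to -8.72 in the hypoxia groups. It was the probe called after adjustment without NK2.

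The interferon-induced genes ISG15 and MX1 were highest in the same control animal. ISG15 read 2.57 in NC1, 1.53 in NC2, 0.82 in NC3 and 0.61 to 0.92 in NK, and MX1 read 1.77 in NC1 against 0.38 and 0.52 in the other NC arrays and 0.13 to 0.69 in NK. Neither was called in NK against NC.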
